A study of Mus musculus with 12 samples.

Results

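The platelet-derived growth factor (PDGF) system was followed as 6 genes, the ligand genes Pdgfa, Pdgfb, Pdgfc and Pdgfd and the receptor genes Pdgfra and Pdgfrb, of 18193 genes with a probe set in the study. All 6 were taken by name, and each was read from the probe set of its own with the highest mean log2 intensity over all tumors, with its other probe sets as a check, 14 probe sets in all. RNA of 12 whole tumors was measured, 1 array per tumor and 3 tumors per group. All were subcutaneous tumors of LLC, the Lewis lung carcinoma line of mouse lung cancer, grown in the right flank. The hosts were C57BL/6 females, 6 to 8 weeks of age, and tumors were collected on day 19. Treatment was allotted by chance once tumors measured 60 to 80 mm3. The 1D11_radiation tumors received 1D11, an antibody that neutralizes TGF-beta and that the labels call a TGFB1 inhibitor, with 5 fractions of 6 Gy, and the radiation tumors received the antibody 13C4 with 5 fractions of 6 Gy. The 1D11 tumors received 1D11 without radiation, and the control tumors received 13C4 without radiation. Every group thus carried an antibody, and 13C4, known as the isotype control of 1D11, takes the place of an untreated state. The labels also give 2 Gy in another field and speak of cells in some fields and of tumors in others. The comparisons ask how radiation alters a tumor's gene expression, and whether blocking TGF-beta changes that response.

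PDGF chains are secreted as dimers that bring receptor chains together and so switch on their tyrosine kinases. PDGF-A and PDGF-C act mainly through PDGFR-alpha, the receptor of fibroblasts and other mesenchymal cells, while PDGF-B acts through both receptors and PDGF-D mainly through PDGFR-beta. In blood vessels, endothelial cells make PDGF-B, and pericytes, which wrap the vessel wall, carry PDGFR-beta and are recruited by it. In tumors, both receptors are known mostly from stromal cells and vessel walls.

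Of the 6 genes, 5 were bright enough to be tested among 12735 genes, and Pdgfd was not. Under the control antibody, radiation left both receptor genes lower: Pdgfrb was 4.15-fold and Pdgfra 1.97-fold lower in radiation tumors than in control tumors, each on its brightest probe set. The Pdgfrb levels of unirradiated 1D11 tumors also lay below those of control tumors, a difference that did not pass the test (adjusted p = 0.127), and their Pdgfra levels overlapped those of control tumors. Over all irradiated tumors Pdgfa was 1.40-fold higher than in unirradiated ones. Pdgfb and Pdgfc did not pass the test in any comparison on the probe sets used.

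Promoter sequences of the called genes Pdgfra and Pdgfa show the DNA in front of their start sites. From RefSeq's promoter table (build GRCm38.p6), 5 start sites of 4 of the 6 genes were used. Pdgfb and Pdgfrb, the latter also a called gene, were not among them. The selection left out a chromosome, so a missing gene is not shown to be absent from that table. The 250 bases before each start site were searched on both strands for CCAAT, for the GC box GGGCGG, for the SMAD box CAGAC, named after the transcription factors that carry TGF-beta signals, and for the hypoxia response core ACGTG. The 3 sequences are shown because Pdgfra and Pdgfa had opposite changes after radiation, and capitals mark the matches on either strand.
Pdgfra, chr5:75152001-75152250, plus strand: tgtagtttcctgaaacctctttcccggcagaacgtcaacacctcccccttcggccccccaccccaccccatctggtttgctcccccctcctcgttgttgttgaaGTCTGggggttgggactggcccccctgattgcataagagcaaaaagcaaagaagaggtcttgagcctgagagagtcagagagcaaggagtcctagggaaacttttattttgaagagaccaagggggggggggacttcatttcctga
Pdgfa, chr5:138994282-138994531, minus strand: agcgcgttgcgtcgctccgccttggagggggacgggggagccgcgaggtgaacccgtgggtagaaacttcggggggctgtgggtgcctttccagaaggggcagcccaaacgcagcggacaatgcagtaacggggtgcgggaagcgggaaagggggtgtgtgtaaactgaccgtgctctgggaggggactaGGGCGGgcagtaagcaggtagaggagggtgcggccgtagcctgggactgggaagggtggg
Pdgfa, chr5:138994945-138995194, minus strand: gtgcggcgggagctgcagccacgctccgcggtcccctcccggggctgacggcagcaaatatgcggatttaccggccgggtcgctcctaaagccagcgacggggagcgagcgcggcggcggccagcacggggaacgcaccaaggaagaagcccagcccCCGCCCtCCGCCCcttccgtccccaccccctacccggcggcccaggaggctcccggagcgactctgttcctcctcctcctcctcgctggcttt
The Pdgfra sequence held 1 SMAD box, 146 bases before the start and on the opposite strand, and no GC box. The first Pdgfa sequence held 1 GC box 60 bases before its start. The second one held 2 GC boxes, 93 and 86 bases before its start, on the opposite strand and without overlap. CCAAT and ACGTG were in none of the 5 promoters, and the promoters of Pdgfc and Pdgfd each held 2 SMAD boxes. Among 32851 promoters of the same length, 42.2% held CAGAC, 32.7% GGGCGG, 33.8% CCAAT and 16.6% ACGTG. These matches describe letters only.

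Values are given as the deposited intensity on its linear scale for replicates 1, 2 and 3 in turn. Log2 changes carry the standard error (SE) of limma's fit over all 12 arrays. A gene is called at an adjusted p under 0.05 over the 12735 genes tested. Nothing in the labels says that the tumors of a group came from separate animals, so p-values measure the spread between these samples. Libraries that stood apart were radiation replicate 3, with an array weight of 0.359 and a skeletal muscle level of 2.10, and control replicate 1, with 0.297 and 1.36, beside muscle levels of -1.35 to 0.643 in the other 10 tumors. The level of a gene list is its tested members' mean log2 intensity in a tumor, after each gene was centred over the 12 tumors.

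**Figure D1:**
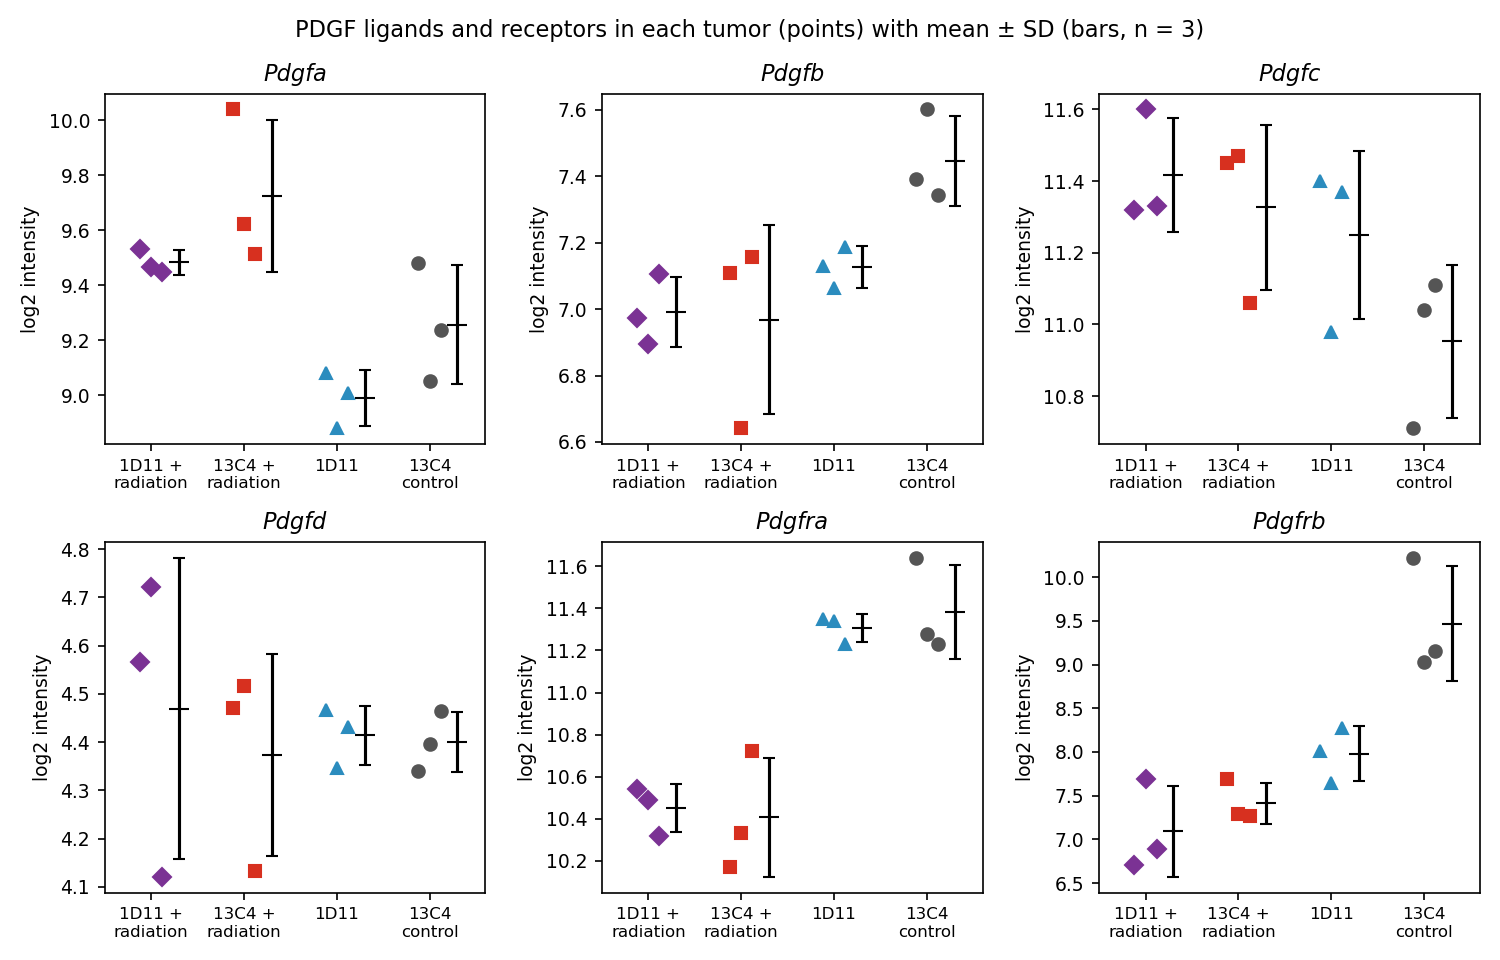
Level of each PDGF gene in each tumor as log2 intensity (y axis, own range per panel) by group (x axis). Points are tumors and bars give the mean ± SD of 3 tumors. Pdgfra is low in the 6 irradiated tumors, while Pdgfrb is at most 310 intensity units in the 9 treated tumors, against 522 to 1193 in the 3 control tumors.

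Pdgfrb encodes PDGFR-beta, the receptor of pericytes and other mural cells. Its intensity was 104, 206 and 119 in 1D11_radiation tumors, 206, 157 and 154 in radiation tumors, 259, 200.3 and 310 in 1D11 tumors, and 1193, 522 and 570.0 in control tumors. Each of the 9 treated tumors lay below each control tumor, and control replicate 1 was the highest of all. The share of all genes with such a separation was not counted. The group means were 7.09 ± 0.52 log2 units in 1D11_radiation, 7.42 ± 0.23 in radiation, 7.98 ± 0.32 in 1D11 and 9.47 ± 0.66 in control (SD, n = 3). That is also their order from low to high. The groups 1D11_radiation and radiation overlapped, as did radiation and 1D11, and only 1D11 and control were neighbours without overlap.

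Pdgfra encodes PDGFR-alpha, the receptor of fibroblasts and their precursors. Its intensity was 1493, 1442 and 1277 in 1D11_radiation tumors, 1153, 1289 and 1682 in radiation tumors, 2605, 2597 and 2394 in 1D11 tumors, and 3192, 2486 and 2404 in control tumors. The 6 irradiated tumors all lay below the 6 unirradiated ones, whichever antibody they had received. The 1D11_radiation tumors averaged 10.45 ± 0.12 log2 units, radiation 10.41 ± 0.28, 1D11 11.31 ± 0.07 and control 11.38 ± 0.22 (SD, n = 3). Radiation was lowest, followed by 1D11_radiation, 1D11 and control. The neighbours 1D11_radiation and radiation overlapped, and so did 1D11 and control, with a gap between the pairs.

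Pdgfa encodes the PDGF-A chain, a ligand of PDGFR-alpha. Its intensity was 741, 708 and 698 in 1D11_radiation tumors, 1055, 789 and 730.3 in radiation tumors, 541, 471 and 515 in 1D11 tumors, and 715, 530.2 and 603 in control tumors. Within each antibody, every irradiated tumor lay above every unirradiated one. The means were 9.48 ± 0.04 log2 units in 1D11_radiation, 9.73 ± 0.28 in radiation, 8.99 ± 0.10 in 1D11 and 9.26 ± 0.22 in control (SD, n = 3). Thus 1D11 was lowest, followed by control, 1D11_radiation and radiation, and each group overlapped its neighbour in this order.

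Pdgfb encodes the PDGF-B chain, which endothelial cells and platelets release. Its intensity was 126, 119 and 138 in 1D11_radiation tumors, 138, 99.8 and 143 in radiation tumors, 140.1, 134 and 146 in 1D11 tumors, and 168, 194 and 163 in control tumors. All 9 treated tumors lay below all 3 control tumors, as for Pdgfrb, but over a narrower range. How many of all genes had this separation was not counted. The means were 6.99 ± 0.11 log2 units in 1D11_radiation, 6.97 ± 0.28 in radiation, 7.13 ± 0.06 in 1D11 and 7.45 ± 0.14 in control (SD, n = 3). In the order radiation, 1D11_radiation, 1D11 and control, only 1D11 and control did not overlap.

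Pdgfc encodes the PDGF-C chain, which is secreted in a latent form and freed by proteolysis. Its intensity was 2557, 3108 and 2569 in 1D11_radiation tumors, 2802, 2843 and 2130 in radiation tumors, 2711, 2025 and 2649 in 1D11 tumors, and 1680, 2103 and 2205 in control tumors. The groups overlapped except that each 1D11_radiation tumor lay above each control tumor. The means, here from high to low, were 11.42 ± 0.16 log2 units in 1D11_radiation, 11.33 ± 0.23 in radiation, 11.25 ± 0.23 in 1D11 and 10.95 ± 0.21 in control (SD, n = 3), each overlapping the next. Pdgfd, which encodes the other latent chain, PDGF-D, had 17.4 to 26.4 intensity units over the 12 tumors, with overlap between all groups. Its log2 mean of 4.41 lay below the limit for testing, 5.37, so its differences are not interpreted.

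With 13C4, radiation (radiation against control) lowered both receptor genes and no ligand gene passed the test. Over all genes, 304 of 12735 were called, 2.39%, with 188 higher and 116 lower, and among the PDGF genes 2 of 5 tested were called, both lower. On the probe set used, Pdgfrb changed by -2.05 ± 0.32 (log2 units ± SE, 3 against 3 tumors, adjusted p = 0.0139). That was the 4th lowest change of all genes tested. Pdgfra changed by -0.98 ± 0.14 (adjusted p = 0.0114). Pdgfa had a change of 0.47 ± 0.14 (adjusted p = 0.0984), Pdgfb of -0.48 ± 0.13 (adjusted p = 0.0739) and Pdgfc of 0.37 ± 0.16 (adjusted p = 0.224). The groups did not overlap for 4 of the 6 genes, Pdgfa above and Pdgfb, Pdgfra and Pdgfrb below control. Of all genes tested, 20.6% had groups without overlap. The median was -0.25 over the 6 genes, dim Pdgfd included, and -0.48 over the 5 tested, beside -0.0015 over all genes tested. Both receptor calls rest on how the spread is estimated and on 1 tumor. The Pdgfra call rests on the probe set too, as its other sets had adjusted p of 0.175 and 0.115. Without radiation replicate 2 the changes were -0.94 for Pdgfra (adjusted p = 0.0531) and -1.99 for Pdgfrb (adjusted p = 0.0591), and with these 2 groups alone in the fit the adjusted p were 0.0992 and 0.0821. Without control replicate 1, the tumor with the highest Pdgfrb, the Pdgfrb change was -1.68 (adjusted p = 0.0165), and Pdgfa was called at 0.58 (adjusted p = 0.0498).

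The same contrast under 1D11 (1D11_radiation against 1D11) gave close to the same size for Pdgfra and a smaller one for Pdgfrb, but no PDGF gene was called. Only 10 of 12735 genes were called by limma here, 0.0785%, beside 1979 at an unadjusted p under 0.05, and of the PDGF genes 0 were called and 3 of 5 tested had an unadjusted p under 0.05. Pdgfra had a difference of -0.85 ± 0.14 on the log2 scale (adjusted p = 0.0568), with all 3 irradiated tumors lower. Pdgfrb had a difference of -0.88 ± 0.32 (adjusted p = 0.225), and 1D11_radiation replicate 2 at 206 reached into the range of the 1D11 tumors. Pdgfa had a difference of 0.49 ± 0.14 (adjusted p = 0.135), with all 3 irradiated tumors higher. The differences of Pdgfb, -0.14 ± 0.13 (adjusted p = 0.676), and Pdgfc, 0.16 ± 0.16 (adjusted p = 0.679), were about as large as their SE. The groups did not overlap for 2 of the 6 genes, Pdgfa and Pdgfra, beside 26.1% of all genes tested, and the median was -0.04 over the 6 genes and -0.14 over the 5 tested, beside -0.026 over all genes tested. Pdgfra was called when control replicate 1 (adjusted p = 0.0211) or radiation replicate 3 (adjusted p = 0.0272) was left out, tumors outside the groups compared that add to the shared estimate of the spread, and when only the 1D11_radiation and 1D11 tumors were fitted (adjusted p = 0.0218), a fit that also called Pdgfa (adjusted p = 0.0399).

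**Figure D2:**
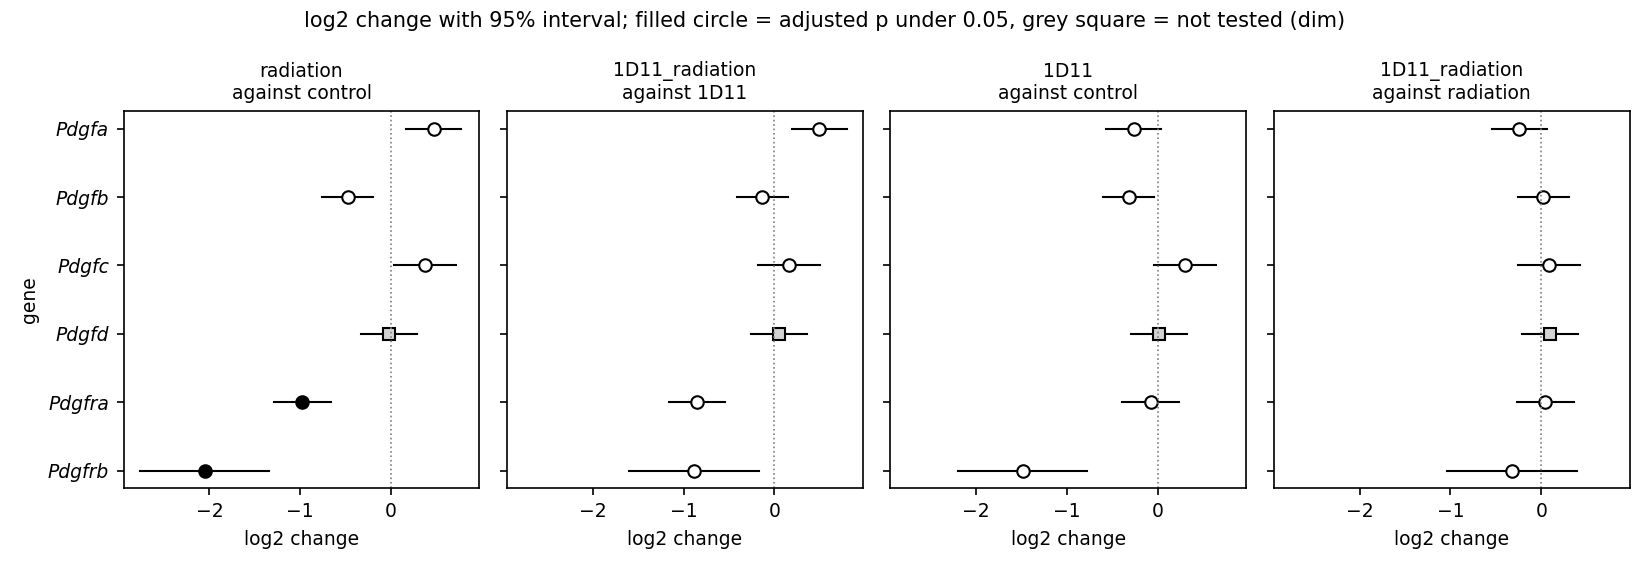
Log2 change of each PDGF gene (y axis) with its 95% interval (x axis) in 4 comparisons of 3 against 3 tumors. Filled circles were called, open circles were tested and not called, and grey squares mark Pdgfd, which was not tested. Both receptor genes are called for radiation against control, at -0.98 and -2.05.

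Whether radiation acted differently under 1D11 was tested as an interaction, the radiation change under 1D11 minus that under 13C4. No gene was called by limma (0%), beside 952 at an unadjusted p under 0.05. Pdgfrb had the interaction farthest from 0 of the 5 genes tested, 1.17 ± 0.46 (95% interval 0.16 to 2.18, unadjusted p = 0.027, adjusted p = 0.616), and it was the 1 PDGF gene with an unadjusted p under 0.05. Without control replicate 1 it was 0.79 (adjusted p = 0.41). For Pdgfra it was 0.12 ± 0.20 (95% interval -0.32 to 0.56, adjusted p = 0.925), for Pdgfb 0.34 ± 0.18 (adjusted p = 0.743) and for Pdgfc -0.21 ± 0.22 (adjusted p = 0.883). For Pdgfa it was 0.0233 ± 0.195 (adjusted p = 0.986). A difference between the antibodies in the response to radiation was thus not shown for any PDGF gene.

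Blocking TGF-beta without radiation (1D11 against control) gave its largest PDGF difference in Pdgfrb. Over all genes 2 of 12735 were called by limma, 0.0157%, beside 1800 at an unadjusted p under 0.05, and of the PDGF genes 0 were called and 2 had an unadjusted p under 0.05. On the probe set used, Pdgfrb was 2.81-fold lower, with a difference of -1.49 ± 0.32 (adjusted p = 0.127). That was the 2nd lowest change of all 12735 genes, and all 3 1D11 tumors lay below the control tumors. Without control replicate 1 it was -1.11 (adjusted p = 0.12). Pdgfb had a difference of -0.32 ± 0.13 (adjusted p = 0.307), again with all 3 1D11 tumors lower. Groups without overlap were found for 19% of all genes tested. Pdgfa, at -0.27 ± 0.14 (adjusted p = 0.409), and Pdgfc, at 0.30 ± 0.16 (adjusted p = 0.409), overlapped between the groups. For Pdgfra the difference was -0.08 ± 0.14 (95% interval -0.39 to 0.23, adjusted p = 0.829), and it was above 0 without control replicate 1 and for both other probe sets. The radiation and the 1D11 comparison share the 3 control tumors, so their values for a gene are not independent.

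Adding 1D11 to radiation (1D11_radiation against radiation) gave no call among all genes (0%), beside 688 at an unadjusted p under 0.05, and no PDGF gene among them. The differences were -0.24 ± 0.14 for Pdgfa (adjusted p = 0.84), 0.02 ± 0.13 for Pdgfb (adjusted p = 0.982), 0.09 ± 0.16 for Pdgfc (adjusted p = 0.941) and 0.05 ± 0.14 for Pdgfra (adjusted p = 0.97). Pdgfrb had the largest of them, -0.32 ± 0.32 (95% interval -1.04 to 0.39, adjusted p = 0.88). All 6 genes overlapped between these groups, beside 13.4% of all genes tested without overlap. The interval of Pdgfra, -0.27 to 0.36, holds no change of the size seen with radiation.

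Against control tumors, the combined treatment (1D11_radiation against control) lowered both receptor genes. Of all genes 299 were called, 2.35%, with 218 higher and 81 lower, and of the PDGF genes 2 of 5 tested, both lower. On the probe set used, Pdgfrb changed by -2.37 ± 0.32 (adjusted p = 0.0104), 5.18-fold lower and the lowest change of all 12735 genes. Pdgfra changed by -0.93 ± 0.14 (adjusted p = 0.0166), 1.91-fold lower. On the other probe sets the Pdgfra differences were -0.22 ± 0.12 (adjusted p = 0.332) and -0.27 ± 0.19 (adjusted p = 0.43), which ends the call, and the Pdgfrb change was -0.99 ± 0.15 (adjusted p = 0.0174), 1.99-fold lower. Pdgfb, at -0.46 ± 0.13 (adjusted p = 0.0791), and Pdgfc, at 0.46 ± 0.16 (adjusted p = 0.121), had groups without overlap, as did 26.7% of all genes tested, and were not called. Pdgfa had 0.23 ± 0.14 (adjusted p = 0.365). Without 1D11_radiation replicate 3 the adjusted p were 0.0744 for Pdgfra and 0.0504 for Pdgfrb, and in a fit of these groups alone they were 0.0725 and 0.0892.

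With both antibodies pooled, 6 irradiated tumors were set against 6 unirradiated ones. Here 925 of 12735 genes were called, 7.26%, and 3 of the 5 PDGF genes tested, Pdgfa higher and both receptors lower. Pdgfra changed by -0.92 ± 0.10 (adjusted p = 0.00178), with 6 of 6 irradiated tumors below all unirradiated ones, where 4.36% of all genes tested had no overlap. Pdgfrb changed by -1.47 ± 0.23 (adjusted p = 0.0072), with overlap between irradiated tumors and 1D11 tumors. Pdgfa changed by 0.48 ± 0.10 (adjusted p = 0.0162), with overlap because control replicate 1, at 715, lay among the irradiated tumors, and its adjusted p was 0.056 with the keratinocyte level as a covariate. Pdgfb had -0.31 ± 0.09 (adjusted p = 0.0626), called without radiation replicate 3 (adjusted p = 0.0371), and Pdgfc 0.27 ± 0.11 (adjusted p = 0.159). In the matching contrast of 6 tumors with 1D11 against 6 with 13C4, 1 gene of 12735 was called, 0.00785%, and it was no PDGF gene. Of the PDGF genes 2 had an unadjusted p under 0.05, Pdgfrb with -0.91 ± 0.23 (adjusted p = 0.257) and Pdgfa with -0.26 ± 0.10 (adjusted p = 0.343).

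**Figure D3:**
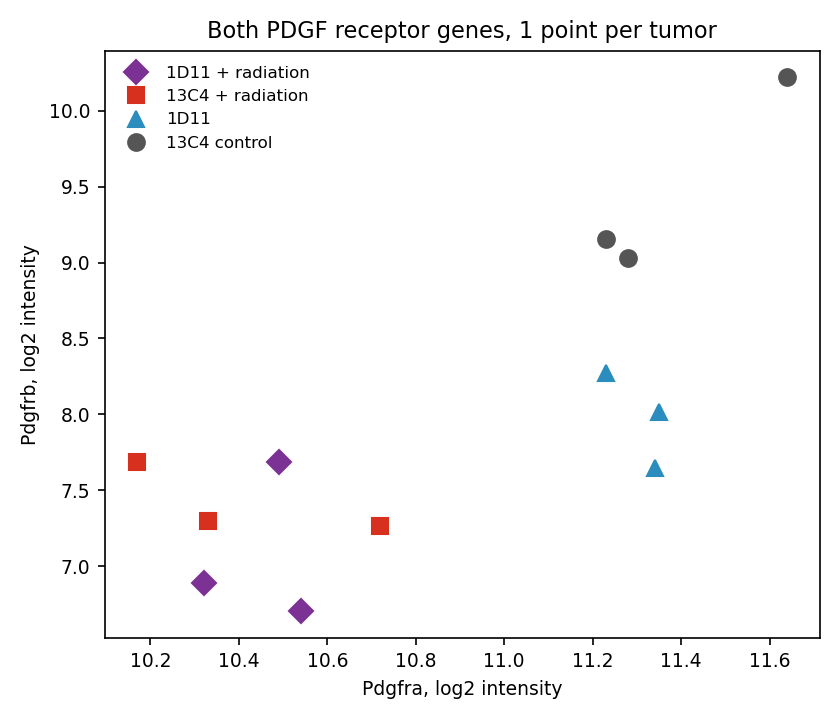
Pdgfra (x axis) against Pdgfrb (y axis) as log2 intensity, 1 point per tumor, with colour and shape for the group. Unirradiated tumors lie to the right, and along the y axis the control tumors lie above the 1D11 tumors, which overlap them in Pdgfra.

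The other probe sets of these genes gave the same direction for radiation against control in each tested gene, with other sizes. For Pdgfrb the other probe set read 46.5, 52.5 and 42.8 in 1D11_radiation tumors, 45.6, 51.6 and 43.0 in radiation tumors, 52.1, 51.9 and 48.6 in 1D11 tumors, and 125, 79.3 and 83.1 in control tumors. It too was high in the 3 control tumors alone, but over a range of 2.91-fold between the extremes, where the brighter set spanned 11.5-fold. Its change was -1.01 ± 0.15 for radiation against control (adjusted p = 0.0128), -0.11 ± 0.15 for 1D11_radiation against 1D11 (adjusted p = 0.798) and -0.88 ± 0.15 for 1D11 against control (adjusted p = 0.109). Its interaction was 0.90 ± 0.21 (adjusted p = 0.376). The size of the Pdgfrb change therefore depended on the probe set.

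For Pdgfra the 2 dimmer probe sets gave smaller differences and were not called in either comparison within an antibody. One had -0.33 ± 0.12 (adjusted p = 0.175) for radiation against control and -0.32 ± 0.12 (adjusted p = 0.234) for 1D11_radiation against 1D11. The other had -0.60 ± 0.19 (adjusted p = 0.115) and -0.29 ± 0.19 (adjusted p = 0.501). With all irradiated against all unirradiated tumors, the set with -0.33 ± 0.09 was called (adjusted p = 0.0436) and the set with -0.44 ± 0.13 was not (adjusted p = 0.0652). The second Pdgfb set was called lower for radiation against control at -0.41 ± 0.08 (adjusted p = 0.0309), and had 0.06 ± 0.08 for 1D11_radiation against 1D11 (adjusted p = 0.804). The second sets of Pdgfa, 0.49 ± 0.15 (adjusted p = 0.113), and Pdgfc, 0.49 ± 0.13 (adjusted p = 0.0709), were close to the sets used.

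**Figure D4:**
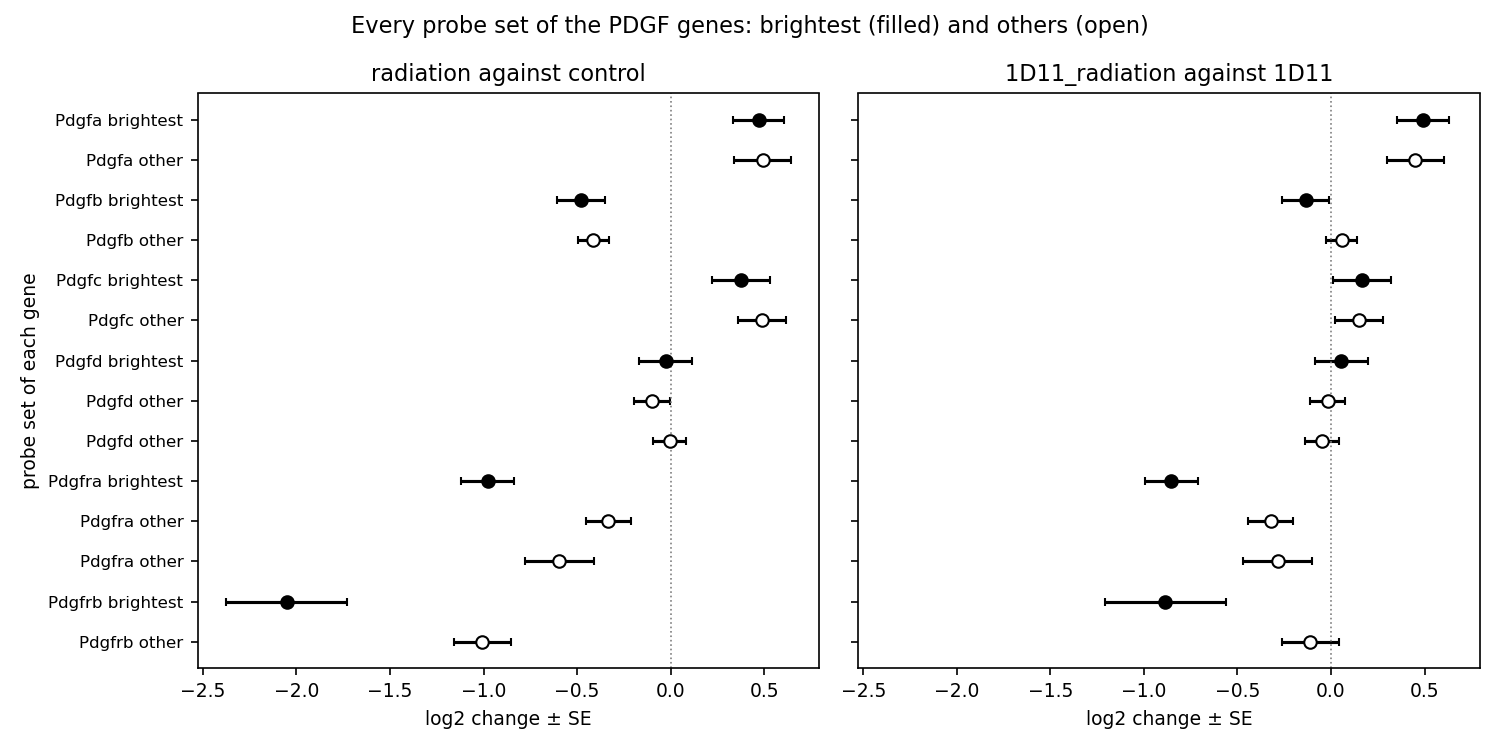
Log2 change ± SE (x axis) of all 14 probe sets of the PDGF genes (y axis) after radiation, under 13C4 on the left and under 1D11 on the right. Filled points are the brightest set of each gene and open points the others. The sets of each receptor gene lie on the same side of 0 but differ in size, from -0.33 to -0.98 for Pdgfra under 13C4.

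Genes that free the ligands or help bind them made no call within either antibody. Of 6 tested members of a list of ligand proteases and co-receptors, 0 were called for radiation against control by limma, and 1 had an unadjusted p under 0.05. The median of the list was -0.02, and it was -0.36 for 1D11_radiation against 1D11, where 0 were called and 2 had an unadjusted p under 0.05. Plat encodes tissue plasminogen activator, the protease that frees PDGF-C. It had -0.54 ± 0.17 (adjusted p = 0.123) under 13C4 and -0.65 ± 0.17 (adjusted p = 0.119) under 1D11. Nrp1, a co-receptor of several growth factors, had -0.20 ± 0.12 (adjusted p = 0.398) and -0.44 ± 0.12 (adjusted p = 0.121). Over all irradiated against unirradiated tumors both were called lower, Plat at -0.59 ± 0.12 (adjusted p = 0.0166) and Nrp1 at -0.32 ± 0.08 (adjusted p = 0.0407). These calls were 33.3% of the list, beside 7.26% of all genes.

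Shares of genes that act inside the cell, downstream of the receptors, are given beside those of all genes. Of 22 tested adaptors and effectors of the receptors, 1 was called for radiation against control, Slc9a3r1, a scaffold that binds the tail of PDGFR-beta, at 0.37 ± 0.08 (adjusted p = 0.0453), which is 4.55% beside 2.39% of all genes. The list median was 0.09 in that comparison and -0.0053 under 1D11, where 0 were called and 3 had an unadjusted p under 0.05. Over both antibodies 2 were called higher, 9.09% beside 7.26% of all genes. They were Map2k1, a kinase of the MAP kinase cascade, at 0.22 ± 0.06 (adjusted p = 0.0391), and Fyn, a Src family kinase, at 0.39 ± 0.10 (adjusted p = 0.0431). Of 14 tested immediate early genes, which growth factors switch on, Fosl1 was called higher at 0.63 ± 0.12 (adjusted p = 0.0238) for radiation against control. Over both antibodies Fosl1, at 0.52 ± 0.08 (adjusted p = 0.0075), and Myc, at 0.36 ± 0.07 (adjusted p = 0.0145), were higher. With 1 and 2 calls of 14, 7.14% and 14.3% beside 2.39% and 7.26% of all genes, no more is read from these shares.

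Among 10 phosphatases, ubiquitin ligases and other brakes on receptor signalling, Spry1 was called lower for radiation against control. Spry1 encodes a Sprouty protein, an inhibitor of receptor tyrosine kinase signalling that such signalling itself induces. It had 181 to 259 intensity units in 1D11_radiation tumors, 174 to 266 in radiation tumors, 373 to 416 in 1D11 tumors and 424 to 464 in control tumors. It was thus low in irradiated tumors under either antibody, as Pdgfra was. Its change was -1.14 ± 0.16 (adjusted p = 0.0111) for radiation against control and -0.82 ± 0.16 (adjusted p = 0.063) for 1D11_radiation against 1D11. Over both antibodies Spry1, at -0.98 ± 0.12 (adjusted p = 0.00247), and its relative Spry2, at -0.51 ± 0.12 (adjusted p = 0.0254), were lower. No other member was called in these comparisons. The calls were 10% of the list for radiation against control and 20% over both antibodies, beside 2.39% and 7.26% of all genes. The list median was -0.018 under 1D11 and -0.015 over both antibodies.

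Because whole tumors were measured, fewer cells of a type and less RNA per cell cannot be told apart. Markers of pericytes and vascular smooth muscle, the cells that carry PDGFR-beta, were set beside the receptors, in a list that does not hold Pdgfrb. Of 12 tested markers 10 had values below 0 for radiation against control, and 3 were called lower, 25% beside 2.39% of all genes. These were Rgs5 at -1.21 ± 0.20 (adjusted p = 0.0188), Mcam at -0.83 ± 0.15 (adjusted p = 0.0223) and Cspg4, the pericyte antigen NG2, at -0.44 ± 0.10 (adjusted p = 0.0396). The median was -0.36, beside -0.0015 over all genes. Under 1D11 the median was -0.12, with 0 called and 3 at an unadjusted p under 0.05, and Rgs5 had -1.19 ± 0.20 (adjusted p = 0.0568). For 1D11 against control, 11 of 12 were below 0, with a median of -0.30. The level of the list ran from -0.35 to 0.02 in 1D11_radiation tumors, from -0.22 to -0.06 in radiation tumors, from -0.06 to 0.09 in 1D11 tumors and from 0.21 to 0.47 in control tumors. The control tumors thus had the highest marker level, as they did for Pdgfrb, and control replicate 1 was highest in both. That tumor also had a skeletal muscle level of 1.36 and an array weight of 0.297. The part of pericyte content in the Pdgfrb result was not tested.

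Fibroblast markers, of cells that carry PDGFR-alpha, made no call in the comparisons below. For radiation against control 0 of 19 tested markers were called by limma, beside 2.39% of all genes, with 4 at an unadjusted p under 0.05 and a median of -0.07, and Prrx1, a mesenchymal transcription factor, had -0.42 ± 0.13 (adjusted p = 0.108). For 1D11_radiation against 1D11, 16 of 19 were below 0, with a median of -0.26, and 0 had an unadjusted p under 0.05. Over both antibodies 14 of 19 were below 0, with a median of -0.14 beside -0.014 over all genes, 0 called and 2 at an unadjusted p under 0.05. Prrx1 had -0.32 ± 0.09 (adjusted p = 0.0546) and Col3a1, a fibrillar collagen, -0.26 ± 0.07 (adjusted p = 0.059) there. The level of the list ran from -0.52 to 0.52 in 1D11_radiation tumors, from -0.25 to 0.30 in radiation tumors, from 0.07 to 0.22 in 1D11 tumors and from -0.05 to 0.11 in control tumors. The groups with and without radiation overlapped. The part of fibroblast content in the Pdgfra result was not tested.

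Endothelial markers, of the cells that make PDGF-B, were lower with radiation under 13C4. Of 17 tested markers 16 had values below 0 and 6 were called, 35.3% beside 2.39% of all genes. These were Ecscr at -0.65 ± 0.11 (adjusted p = 0.0215), Egfl7, a protein secreted by endothelium, at -0.50 ± 0.09 (adjusted p = 0.0258), and Tek, the angiopoietin receptor, at -0.66 ± 0.13 (adjusted p = 0.0269). The other calls were the transcription factor gene Sox18 at -0.72 ± 0.14 (adjusted p = 0.0291), Vwf, the von Willebrand factor of vessels and platelets, at -1.41 ± 0.31 (adjusted p = 0.0432), and the adhesion molecule gene Esam at -0.56 ± 0.13 (adjusted p = 0.0453). The median was -0.55, beside -0.0015 over all genes. Under 1D11 it was -0.14, beside -0.026 over all genes, with 0 called and 3 at an unadjusted p under 0.05. Tek had -0.74 ± 0.13 (adjusted p = 0.0568) there. The level of the list ran from -0.13 to 0.03 in 1D11_radiation tumors, from -0.31 to -0.26 in radiation tumors, from -0.09 to 0.24 in 1D11 tumors and from -0.12 to 0.51 in control tumors. Its part in the Pdgfb values was not tested. No marker in these lists was at 0, since the lowest intensity in the files was 7.40.

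Markers of tissue next to a tumor varied between tumors, and none of those below was called. The 15 skeletal muscle markers were all above 0 for radiation against control, with a median of 1.12, 0 called and 1 at an unadjusted p under 0.05. Their levels overlapped, at -0.18 to 2.10 in radiation tumors and -1.12 to 1.36 in control tumors. With their level as a covariate the radiation changes of the receptors were called, with Pdgfrb at -2.34 (adjusted p = 0.00432). Without both control replicate 1 and radiation replicate 3, the tumors with the highest muscle level, the changes were -1.004 for Pdgfra (adjusted p = 0.00274) and -1.60 for Pdgfrb (adjusted p = 0.0268). The median of 5 tested keratinocyte markers was -1.13 for 1D11_radiation against 1D11, with 0 called and 4 at an unadjusted p under 0.05, and with 1D11 tumors at levels of -0.36 to 2.13 and all other tumors at -0.40 to -0.14. With this level as a covariate the Pdgfrb difference in that comparison was -0.61 (adjusted p = 0.661). No list of defining markers of LLC cells was used, so the identity of the tumor cells was not checked.

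The genes whose levels were most like each receptor were found by Pearson's r of log2 intensity over the 12 tumors, a description without a test, as the tumors fall into groups. For Pdgfra they were Spry1 (r = 0.974), Osr2 (0.967), Sgcb (0.966), Prrg2 (0.964) and Lhx9 (0.963). After group means were removed, r was between 0.718 and 0.845. All 5 were called lower for radiation against control, beside 2.39% of all genes called, from -0.35 for Sgcb to -1.72 for the transcription factor gene Osr2. The genes like either receptor were picked over all 12 tumors, so group differences shared with it follow from the choice. For Pdgfrb they were Lgalsl (r = 0.968), Mrgprf (0.937), Mtx2 (0.928), Six4 (0.917) and Wdr75 (0.914), with r of 0.495 to 0.923 after group means were removed. Of these only Lgalsl, a galectin-like gene with r = 0.923 within groups, was called for radiation against control, at -1.26 (adjusted p = 0.0139). It had 340 to 401 intensity units in 1D11_radiation tumors, 318 to 370 in radiation tumors, 433 to 587 in 1D11 tumors and 656 to 1190 in control tumors, the same order of control above 1D11 above irradiated tumors. The receptors themselves correlated at r = 0.759, and neither was among the 5 nearest genes of the other.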

How the data were processed

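Total RNA (6 µg per tumor) was made into biotin-labelled cRNA and hybridised to 1-colour Affymetrix arrays, per the labels' protocols. The deposited values are linear intensity per probe set. How the authors corrected, normalized and summarised them is not given in the sources used here. Array medians of 62.3 to 66.1, and sorted log2 values that differed by at most 0.129 between arrays, show values already normalized between arrays, so they were used as log2 intensity with a floor of 1, which no value reached. Depth has no counterpart on arrays, and 3 arrays per group limit the precision.

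Of 45101 probe sets, 34945 had 1 gene symbol in the platform's annotation, 932 several, 9160 none, and 64 were controls. Each of 18193 genes was read from its probe set with the highest mean log2. The lowest 30% of genes by mean were not tested, which left 12735. limma 3.58.1 in R 4.3.3 fitted 1 mean per group over all 12 arrays (lmFit, eBayes, 8 residual and 3.11 prior degrees of freedom), with two-sided tests and Benjamini-Hochberg adjustment over all genes tested. The script was tested on simulated data. Figures were drawn with matplotlib 3.10.9 in Python 3.11.15.

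The PDGF genes, gene lists, motifs and alternatives were chosen with earlier results of these data known. The text names all 6 PDGF genes, and chooses list members among the 4 with the smallest p in either radiation comparison within an antibody and those called, and it names the 5 genes most like each receptor. No array copied another (SD of log2 differences at least 0.173). Same-numbered arrays of different groups correlated at -0.308 to 0.272 after removal of group means, with 3 of 18 pairs over 0.1. Arrays with different numbers were not compared, so whether the numbers pair the tumors is not settled. The labels state no pairing, and none was used in the main fit. The labels give no batch or array date.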

Additional observations from a re-analysis of the deposited data

How the results depend on the processing

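Over 36 PDGF changes, 889 values were recomputed under the alternatives: 829 kept direction and side of the threshold, 14 lost a call, 25 gained one and 21 turned sign. The cause of these moves was not tested, except that a fit of fewer tumors has fewer degrees of freedom. The tally leaves out the Pdgfa interaction, and Pdgfb, Pdgfc and Pdgfra in the pooled contrast of 1D11 against 13C4. Sign turns among these were not counted. On its other set the Pdgfa interaction was -0.0423, against 0.0233. On its other sets Pdgfra in the pooled contrast was 0.112 and 0.173, against -0.0166. The number of PDGF genes called for radiation against control, 2, was 0 with only the groups compared in the fit, 4 with array weights, and 0 to 3 with 1 tumor left out. For 1D11_radiation against 1D11, 0 became 1 with the lowest 50% of genes not tested, 2 with only the groups compared, 3 with array weights, 1 with a trended and robust spread, 2 without both control replicate 1 and radiation replicate 3, 1 with the muscle level as a covariate, and 0 to 1 with 1 tumor left out. For 1D11_radiation against control, 2 became 0 with only the groups compared and 0 to 3 with 1 tumor left out. Over both antibodies, 3 ranged from 2 to 4. With the mean of its probe sets Pdgfb was called lower for radiation against control (adjusted p = 0.0201), 1D11_radiation against control (adjusted p = 0.0286) and over both antibodies (adjusted p = 0.0224), and over both also after quantile normalization (adjusted p = 0.0415) or with array weights (adjusted p = 0.0258).

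Signs turned for differences that were not called. For 1D11 against control, Pdgfra was 0.0155 with the mean of its probe sets, 0.0078 with array weights, 0.0495 without both muscle-rich tumors, and 0.107 and 0.0178 on its other sets, and with 1 tumor left out it ran from -0.155 to 0.0495. For 1D11_radiation against radiation, Pdgfb was -0.0063 after quantile normalization, Pdgfc -0.0731 with array weights, -0.0461 without both muscle-rich tumors, -0.0614 with the muscle covariate and -0.0278 on its other set, and Pdgfrb 0.0818 with the muscle covariate and 0.0148 on its other set. With 1 tumor left out, in that comparison, Pdgfb ran from -0.141 to 0.116, Pdgfc from -0.0461 to 0.162 and Pdgfra from -0.0718 to 0.2003. The interaction of Pdgfra ran from -0.0039 to 0.28 with 1 tumor left out, and Pdgfb for 1D11_radiation against 1D11 was 0.058 on its other set.

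With the replicate number as a block, Pdgfra changed by -0.98 (adjusted p = 0.0294) and Pdgfrb by -2.05 (adjusted p = 0.0319) for radiation against control, and the PDGF genes called were 2, 0, 0, 0, 2, 0, 3 and 0 in the 8 comparisons, as without it. The genes called over all 12735 ran, across settings, from 6 to 890 (304 as reported) for radiation against control, 1 to 1491 (10) for 1D11_radiation against 1D11, 0 to 58 (2) for 1D11 against control, 0 to 6 (0) for 1D11_radiation against radiation, 1 to 923 (299) for 1D11_radiation against control, 0 to 122 (0) for the interaction, 273 to 2176 (925) for all irradiated tumors and 0 to 3 (1) for all 1D11 tumors. Without background signal per array, how far Pdgfd and the dimmer probe sets lie above background is not known.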

Other observations

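Gene groups outside the PDGF system are given as values, in lists chosen with earlier results known. Over all irradiated against unirradiated tumors, 6 of 12 hypoxia genes were called higher, beside 7.26% of all genes, with a median of 0.53. They were Pgk1 at 0.30, P4ha2 at 0.62, Ldha at 0.18, Adm at 0.94, Bnip3 at 0.65 and Vegfa at 0.62. The level of the list ran from 0.20 to 0.39 in 1D11_radiation tumors, 0.02 to 0.42 in radiation tumors, -0.49 to -0.34 in 1D11 tumors and -0.59 to 0.22 in control tumors. For radiation against control, 3 of 14 macrophage and monocyte genes were called higher, 21.4% beside 2.39% of all genes. These were Mrc1 at 1.14 ± 0.15 (adjusted p = 0.00888), Fcgr1 at 0.84 ± 0.13 (adjusted p = 0.0139) and Itgam at 0.59 ± 0.13 (adjusted p = 0.0453). The median of that list was 0.34, and for 1D11_radiation against 1D11 it was -0.28, with 0 called and 3 at an unadjusted p under 0.05.

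Pf4, a platelet chemokine stored with PDGF, was higher by 1.04 ± 0.13 (adjusted p = 0.00806) for radiation against control, the 1 call there among 7 platelet genes tested. Over all irradiated tumors Ppbp, another platelet chemokine, was called too, at 1.25 ± 0.28 (adjusted p = 0.0254). The calls were 14.3% of the list for radiation against control and 28.6% over all irradiated tumors, beside 2.39% and 7.26% of all genes. The list medians were 0.0011 and 0.0082, with 3 of 7 genes below 0 in each comparison. Among 10 genes of the TGF-beta response, Id3, an inhibitor of basic helix-loop-helix factors, was the 1 call for radiation against control, at -1.18 ± 0.16 (adjusted p = 0.00816), with a list median of -0.16. Over all irradiated tumors Id3, at -1.03 ± 0.11 (adjusted p = 0.00172), Pmepa1, at -1.11 ± 0.20 (adjusted p = 0.0101), and Tgif1, at 0.22 ± 0.05 (adjusted p = 0.0269), were called. These calls were 10% of the TGF-beta list for radiation against control and 30% over all irradiated tumors, beside 2.39% and 7.26% of all genes. Over all irradiated tumors the median of that list was 0.08, with 6 of 10 genes above 0.

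Mast cell genes stood high in the 1D11 group. Their level ran from -0.74 to -0.13 in 1D11_radiation tumors, -0.38 to -0.03 in radiation tumors, 0.65 to 0.96 in 1D11 tumors and -0.52 to 0.07 in control tumors. For 1D11_radiation against 1D11, Mcpt4, a mast cell protease, was called at -1.59 ± 0.24 (adjusted p = 0.0499), 14.3% of 7 tested beside 0.0785% of all genes. The median of the 7 tested was -1.59 there. It was 0.20 for radiation against control, with 0 called and 1 at an unadjusted p under 0.05, and 1.51 for 1D11 against control, with 0 called and 5 at an unadjusted p under 0.05. For 1D11_radiation against 1D11 the medians of 3 adipocyte, 3 nerve and 10 stress genes were -0.90, 0.05 and 0.39, with 0 called and 3, 1 and 5 at an unadjusted p under 0.05.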
